A study of Mus musculus with 2 samples.

Results

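The 10 genes described here, of the 32285 genes counted, were the MHC class II genes Cd74, H2-Aa, H2-Ab1, H2-Eb1 and their activator Ciita, and the chemokine genes Cxcl9, Cxcl10, Cxcl14, Ccl2 and Cxcl12. They were chosen by their measured levels in these same libraries, with the share of cells that held them, the number of cells that held most of their UMIs (unique molecular identifiers, the counted molecules) and their detection beside Gbp2 and Ptprc already known, so each of those values is a description and not a test. The study compared melanocyte stem cells (McSCs) early in hair growth with the mature melanocytes of the hair bulb. Each condition was 1 droplet scRNA-seq library, in which the cells of 4 mice were combined, so there was no replicate and no test between conditions. All mice were Dct-rtTA; tetO-H2B-GFP animals of mixed background given doxycycline food for 4 days, in which the Dct promoter drives a nuclear GFP, and GFP-positive, DAPI-negative cells were sorted. The early-anagen McSCs came from back skin 4 days after depilation at 8 weeks of age, by trypsin and separation of the epidermis. The bulb melanocytes came from microdissected bulbs of full-anagen follicles at 5 weeks of age, by EDTA and then collagenase with dispase. Kit chemistry was version 3 for the first and version 2 for the second. Depth, chemistry, age, depilation, dissociation and stage therefore differed together and cannot be told apart.

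A cell was kept if it held at least 1 UMI of Dct, a melanocyte lineage marker that encodes an enzyme of melanin synthesis, fewer than 3 UMIs of Krt10 and Krt14 together, under 5% mitochondrial UMIs, and more than 10000 UMIs in early anagen or 5000 in the bulb. This left 2785 of 11010 barcodes in early anagen, with a median of 24528 UMIs, and 3734 of 4327 in the bulb, with a median of 14286.5. The kept cells held 75718468 and 55883067 UMIs, and 0 of their barcodes occurred in both libraries (1 over all barcodes). Of the melanocyte markers that the rule did not use, Mlana had a UMI in 2782 of the 2785 early-anagen cells and Pmel in 2772. In bulb melanocytes, of fewer UMIs in all, they had 1135805 and 851655 UMIs, against 421386 and 326828 in early anagen. They mark the lineage in both libraries, and their levels were higher in the bulb. The 1 cell with Ptprc, named next, also held both, so a UMI does not set melanocytes apart from it. Ptprc, which encodes the leucocyte surface protein CD45, had a UMI in 1 early-anagen cell and in 0 of 3734 bulb cells, which allows a share of cells with a UMI of up to 0.0803% if 3 cells are taken as the limit. That 1 cell held a large part of the class II UMIs, and the class II values that it moves are given with and without it. Shares of cells carry exact Clopper-Pearson 95% intervals, and levels, in UMIs per 1000000 UMIs of the set (CPM), carry exact Poisson ones. Both cover counting error only. The libraries count 3′ ends, so levels carry no correction for gene length.

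MHC class II molecules are pairs of an alpha and a beta chain that display peptides at the cell surface to CD4+ T cells. H2-Aa and H2-Ab1 encode the chains of I-A, H2-Eb1 the beta chain of I-E, and Cd74 the invariant chain that guides them to the compartment where peptide is loaded. Their promoters share an X and a Y box, bound by RFX and NF-Y proteins, to which CIITA is recruited. Dendritic cells, macrophages and B cells make class II constitutively, whereas interferon-gamma induces it in many other cells, melanocytes among them. Interferon-gamma also induces the chemokines CXCL9 and CXCL10, which attract T cells that carry CXCR3, and GBP2, a guanylate-binding GTPase. CCL2 attracts monocytes through CCR2, CXCL12 is the ligand of CXCR4, and CXCL14 is made constitutively by skin epithelium.

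H2-Ab1 (chr17:34257689-34269419), H2-Aa (chr17:34282744-34287823) and H2-Eb1 (chr17:34305867-34316674) are neighbours in the H2 complex, and Cxcl9 (chr5:92321347-92328079) and Cxcl10 (chr5:92346638-92348889) are neighbours on chromosome 5 (GRCm38, GENCODE vM21). The 250 bases before the start of the 4 of these genes with a RefSeq promoter window (GRCm38.p6) are printed below 5′ to 3′ on the strand of the gene, because these are class II and interferon-induced chemokine genes that were higher in early-anagen cells with Gbp2. Capitals mark CCAAT on either strand, the core of the Y box, and the interferon-stimulated response element GAAANNGAAA.
H2-Aa (chr17:34287824-34288073, minus strand): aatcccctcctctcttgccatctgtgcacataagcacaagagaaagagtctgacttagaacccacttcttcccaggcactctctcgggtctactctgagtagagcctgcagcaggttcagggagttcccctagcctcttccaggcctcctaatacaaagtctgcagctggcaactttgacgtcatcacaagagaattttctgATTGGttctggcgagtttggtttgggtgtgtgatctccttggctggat
H2-Eb1 (chr17:34305617-34305866, plus strand): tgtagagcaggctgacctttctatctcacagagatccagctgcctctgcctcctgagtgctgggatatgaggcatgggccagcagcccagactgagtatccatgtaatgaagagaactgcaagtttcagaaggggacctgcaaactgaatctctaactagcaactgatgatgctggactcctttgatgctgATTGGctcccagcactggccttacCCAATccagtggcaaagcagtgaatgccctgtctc
Cxcl9 (chr5:92328080-92328329, minus strand): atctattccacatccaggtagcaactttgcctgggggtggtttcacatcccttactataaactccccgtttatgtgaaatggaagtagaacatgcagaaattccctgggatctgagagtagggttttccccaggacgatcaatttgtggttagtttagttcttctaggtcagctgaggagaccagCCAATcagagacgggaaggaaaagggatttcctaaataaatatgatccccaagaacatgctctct
Cxcl10 (chr5:92348890-92349139, minus strand): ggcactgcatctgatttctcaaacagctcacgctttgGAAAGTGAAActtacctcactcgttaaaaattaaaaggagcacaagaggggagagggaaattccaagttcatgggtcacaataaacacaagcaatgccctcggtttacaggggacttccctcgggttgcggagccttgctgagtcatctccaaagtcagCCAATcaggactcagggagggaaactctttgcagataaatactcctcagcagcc

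Each of the 4 windows held CCAAT, at 48 to 44 bases before the start on the opposite strand in H2-Aa, at 59 to 55 on the opposite and 35 to 31 on the gene's strand in H2-Eb1, at 65 to 61 in Cxcl9 and at 54 to 50 in Cxcl10. Over all 32851 windows of this length, 33.8% held it on 1 strand or the other. GAAANNGAAA, in 2.98% of windows, was found in Cxcl10, 213 to 204 bases before the start, and in Cxcl14, 172 to 163 before it. The gamma-activated site TTCNNNGAA, in 7.02% of windows, was in Cxcl14 (191 to 183 before the start; its letters read the same on both strands), and Cxcl12 held none of the motifs searched. The strict X box CCNAGNNACNGATG was in 0.0487% of windows, and GGGNNTTTCC, a strict form of the kappa B site, in 1.41%. Neither was in the 6 members' windows, which says only that these letters are not there. Other forms of these sites were not searched. Cd74, H2-Ab1, Ciita and Ccl2 had no window.

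Class II levels, pooled over cells, were higher in early-anagen McSCs than in bulb melanocytes, where they were close to the floor of detection. They did not set the McSCs apart from barcodes under 2000 UMIs of the same library, which may hold free RNA or damaged cells. Those barcodes had Cd74 at 26.3 CPM and H2-Aa at 17.6, above the McSC levels. For H2-Ab1 and H2-Eb1 their intervals overlapped those of the McSCs. H2-Ab1 was at 16.8 CPM (95% interval 15.9 to 17.7) in early anagen, from 1270 UMIs, and at 0.394 (0.247 to 0.596), from 22 UMIs, in the bulb. Cd74 was at 14.2 CPM (13.4 to 15.1) against 0.412 (0.261 to 0.618), from 1078 and 23 UMIs. H2-Aa was at 12.9 CPM (12.1 to 13.7) against 0.161 (0.0736 to 0.306), from 974 and 9 UMIs. H2-Eb1, at 7.88 CPM (7.26 to 8.54) against 0.161, was the lowest of the 4 in early anagen. On the log2 scale, bulb over early anagen, the differences were -5.41 for H2-Ab1 (interval -6.09 to -4.81), -5.11 for Cd74, -6.32 for H2-Aa and -5.61 for H2-Eb1. Without the cell with Ptprc they were -5.26, -4.62, -6.10 and -5.23. Their activator Ciita was scarce in both, with 13 UMIs in 9 early-anagen cells and 1 UMI in the bulb (log2 -3.26, interval -8.67 to -0.53).

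Of the interferon-induced chemokines, Cxcl9 differed most and Cxcl10 by an interval that overlapped that of H2-Aa. Cxcl9 was at 55.2 CPM (53.5 to 56.9) in early anagen, from 4179 UMIs, and had 0 UMIs in the bulb, at least 1028-fold lower if 3 UMIs are taken as the limit of detection of the library. Cxcl10 was at 63.7 CPM (62.0 to 65.6) against 0.662 (0.466 to 0.913), 96.3-fold lower in the bulb (69.8 to 137). Cxcl14 had the highest level of the 10 in both libraries, 99.1 CPM (96.8 to 101) from 7501 UMIs and 6.53 CPM (5.88 to 7.24) from 365 UMIs, 15.2-fold lower in the bulb. Cxcl12 had 44 UMIs in early anagen (0.581 CPM) and 0 in the bulb, at least 10.8-fold lower by the same limit. Ccl2 had 10 and 2 UMIs, and the interval of its log2 difference, -5.11 to 0.35, included 0. In the order of levels in early anagen, the intervals of Cd74 and H2-Aa overlapped, as did those of Ciita and Ccl2, while those of Cxcl14, Cxcl10, Cxcl9 and H2-Ab1 were each apart from the next. These intervals do not cover the spread between cells, and 1 cell held 761 of the 4179 Cxcl9 UMIs. Without the cell with Ptprc, Cd74 was at 10.1 CPM and H2-Aa at 11.0, the reverse order. In the bulb, Cxcl14 was apart from Cxcl10, whose interval overlapped those of Cd74 and H2-Ab1. Ccl2, Ciita, Cxcl10 and H2-Eb1 each overlap a gene on the other strand (Gm17268, Dexi, Art3 and Gm20513), and whether the counting used strand is not given in the sources used here.

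**Figure D1:**
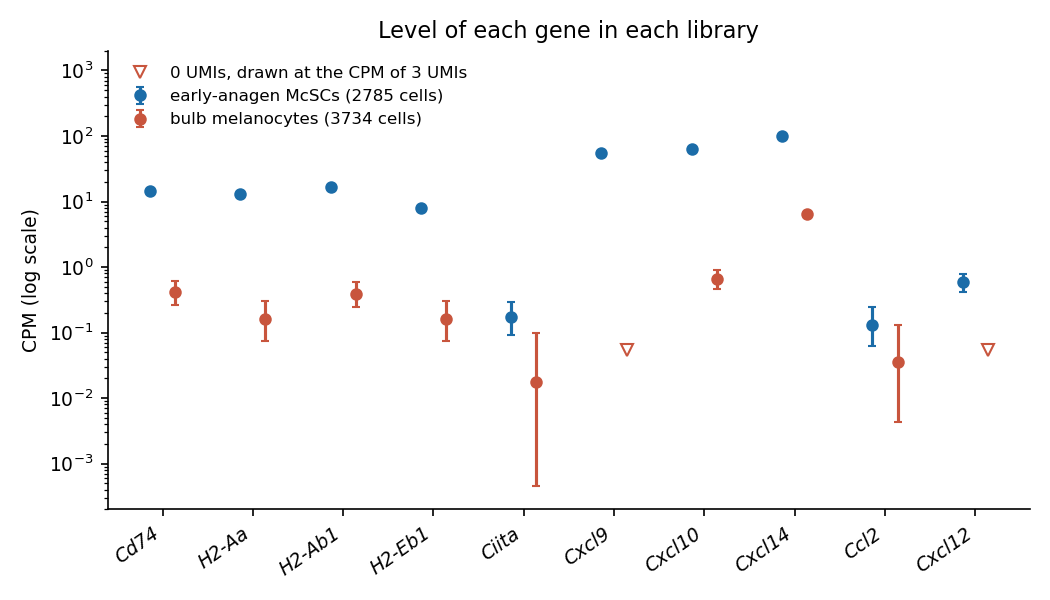
CPM of the 10 genes on a log scale in early-anagen McSCs (blue) and bulb melanocytes (red), 1 library each, with exact Poisson 95% intervals, which are smaller than the points for high counts. Open triangles are Cxcl9 and Cxcl12, with 0 UMIs in the bulb, drawn at the CPM of 3 UMIs; the early-anagen point is above the bulb point for each gene, and the intervals of Ciita and of Ccl2 overlap.

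By the rule of a log2 difference of -1 or less with an interval below 0, 9 of the 10 were lower in the bulb and 0 were higher. Of all 14932 genes with at least 10 UMIs, 37.1% were lower and 14.3% higher by the same rule, and the median over the 14237 with a UMI in both libraries was -0.43. Since the genes were chosen with this contrast known, nothing is read from the count. At an equal depth of 5000 UMIs per cell, the share of cells with a UMI was 18.9% in early anagen and 1.55% in the bulb for Cxcl14, 8.55% and 0.214% for Cxcl10, 4.52% and 0.268% for H2-Ab1, 3.38% and 0.107% for H2-Aa, 2.01% and 0.268% for Cd74, 1.97% and 0.0803% for H2-Eb1, and 1.76% and 0 for Cxcl9. Without the cell with Ptprc the early-anagen shares were 4.49% for H2-Ab1, 3.34% for H2-Aa, 1.98% for Cd74 and 1.94% for H2-Eb1. Without thinning the early-anagen shares ran from 2.62% (Cxcl9) to 32.8% (Cxcl14) for these 7 genes.

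For most of these genes a few cells held most of the UMIs, with Cxcl14 and H2-Ab1 more spread. Cxcl9 had a UMI in 73 of 2785 early-anagen cells, 6 cells held 50% of its UMIs, and the highest 5 held 761, 381, 310, 305 and 246. Cxcl10 was found in 641 cells, with 375, 366, 348, 177 and 170 UMIs in its highest 5 and 50% of its UMIs in 16. Cxcl14 was the most evenly spread, with a UMI in 914 cells, a highest value of 85 and 126 cells holding 50% of its UMIs. The 1% of cells with most UMIs of a gene (27 cells) held 95% of the UMIs of Cxcl9, 79.2% of Cd74, 65.3% of H2-Eb1, 60.4% of H2-Aa, 57.8% of Cxcl10, 46.1% of H2-Ab1 and 19.0% of Cxcl14. Without the cell with Ptprc the class II shares were 71.8% for Cd74, 55.8% for H2-Eb1, 54.6% for H2-Aa and 40.9% for H2-Ab1. Ciita, Ccl2 and Cxcl12, of 10 to 44 UMIs, could not be spread over many cells, at 100%, 100% and 75.0%.

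The share in 1% of cells was over 50% for 8 of the 10 genes, against 20.5% of the 13172 genes of 10 to 10000 UMIs. Among the 7310 genes of 500 to 10000 UMIs, where sparse counts concentrate less, it was over 50% for 0.192%, and their median share was 7.14%. Of the 7 members in that range, 5 were over 50%, and H2-Ab1 and Cxcl14 were also above the median. In the bulb the class II genes, of 9 to 23 UMIs each, were too scarce to describe a spread. Cxcl14 was more concentrated there than in early anagen, with a highest value of 33 UMIs, 77.5% of its UMIs in 1% of cells and 50% in 15 cells. These shares rest on unlike counts, 365 UMIs in 93 bulb cells and 7501 in 914 early-anagen cells, and were not compared at equal counts.

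**Figure D2:**
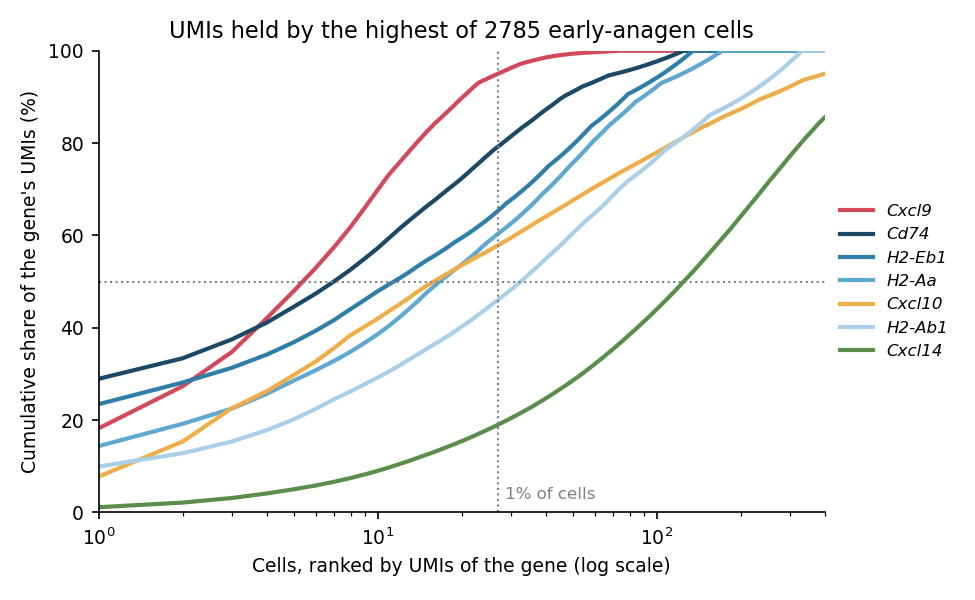
Cumulative share of the UMIs of 7 genes (y axis, %) held by the highest 1 to 400 of 2785 early-anagen McSCs, ranked for each gene by its UMIs (x axis, log scale). The dotted lines mark 1% of cells and 50% of UMIs; the curve of Cxcl9 reaches 50% at 6 cells and that of Cxcl14 at 126.

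A single early-anagen cell held the highest value of all 4 class II genes. It had 312 of the 1078 Cd74 UMIs (28.9%), 140 of 597 for H2-Eb1 (23.5%), 140 of 974 for H2-Aa (14.4%) and 126 of 1270 for H2-Ab1 (9.92%), and it was the cell with Ptprc, at 2 UMIs. The same cell held all 91 UMIs of Cd207, the langerin gene of Langerhans cells, 21 of 24 UMIs of Cd52 and 17 of 19 of Tyrobp, both leucocyte genes, and 64.0% of those of Cxcl16. Of 19 leucocyte markers 9 had a UMI in it, with 3 of 20 UMIs for Coro1a, 2 of 21 for Laptm5 and 6 of 84 for Fcer1g. The others, Lyz2 and Cd68 among them, were at 0. Of 5 markers of Langerhans and dendritic cells 4 had a UMI in it, with Itgax at 1 and Cd86 at 0. The same cell also held melanocyte transcripts, with 261 UMIs of Dct, 207 of Mlana and 98 of Pmel in 28687 UMIs, and 0 UMIs of Gbp2, Ciita, Cxcl9, Cxcl10, Cxcl14, Ccl2 and Cxcl12. At 10000 UMIs, the 4 class II genes were the members higher in it than in the other 2784 cells, and 1.73% of genes were higher in it by the rule. Whether it was 1 cell or 2 in a droplet was not tested.

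Without this cell, Cd74 was at 10.1 CPM in place of 14.2, H2-Eb1 at 6.04 in place of 7.88, H2-Aa at 11.0 in place of 12.9 and H2-Ab1 at 15.1 in place of 16.8. The highest values among the other cells were 48 UMIs of Cd74, 47 of H2-Aa, 37 of H2-Ab1 and 28 of H2-Eb1. Class II transcripts were therefore also present in cells without Ptprc, at lower numbers per cell. The chemokine members did not involve the cell with Ptprc.

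In the remaining 2784 cells, class II genes were found in the same cells. Of the 124 cells with Cd74, 75.0% had H2-Ab1, 66.9% H2-Aa and 57.3% H2-Eb1. Among cells without Cd74, the same genes had a UMI in 8.95%, 3.31% and 2.37%. H2-Eb1 was found with H2-Ab1 in 113 of its 134 cells and with H2-Aa in 102. In all, 2377 cells had none of the 4 genes, 233 had 1, 61 had 2, 47 had 3 and 67 had 4, the cell with Ptprc among the last. In the bulb, 3681 cells had none, 49 had 1, 3 had 2, 1 had 3 and 0 had 4. Ciita was found in 4 of the 113 cells with 3 or 4 class II genes and in 2 of the 2377 with none.

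The 113 early-anagen cells with 3 or 4 class II genes and no Ptprc carried the melanocyte markers. Dct was at 6372 CPM in them and 7941 in the 2377 cells with no class II gene, Mlana at 5061 and 5594, and Kit, the receptor of stem cell factor, at 482 and 486. Of the 19 leucocyte markers 4 had a UMI in the 113 cells (Fcer1g, Lyz2, Cd68 and Cd3e), 12 UMIs in all or 3.78 CPM, against 5.55 CPM in cells with no class II gene. Coro1a and Laptm5 were at 0. Ptprc, Cd207 and Itgax were at 0 because the cell left out held all of their UMIs. Cd52 and Tyrobp were also at 0, with 21 of 24 and 17 of 19 UMIs in the cell left out. The keratinocyte markers together were at 36.3 CPM in both sets. The cells with most class II UMIs apart from the cell with Ptprc held 144, 124, 107, 95 and 93 UMIs of the 4 genes, with 131, 90, 64, 145 and 218 UMIs of Dct.

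Gbp2, the interferon-induced gene whose detection was set beside the members, had a UMI in 840 of the 2785 early-anagen cells (30.2%) and in 42 bulb cells. With each cell thinned to 10000 UMIs, 503 cells had Gbp2 and 2282 did not. Cxcl9 was at 276 CPM in the first and 4.95 in the second, a log2 difference of 5.80 (5.52 to 6.09). Cxcl10 was at 240 and 23.7 CPM (3.34, 3.20 to 3.49). For the class II genes, the log2 difference was 2.84 for H2-Aa, 2.68 for H2-Ab1, 2.29 for H2-Eb1 and 2.01 for Cd74, and without the cell with Ptprc, which lacked Gbp2, it was 3.32, 2.95, 3.22 and 2.86. The interval covers neither the spread between cells nor the random thinning. Another draw of the same cells, without the cell with Ptprc, gave 5.42 for Cxcl9 and 2.54 for Cd74. With no thinning, the cell with Ptprc kept and all 840 cells with a Gbp2 UMI on 1 side, Cd74 was at 1.01, against 2.01 above. Those 2 values differ both in thinning and in which cells counted as holding Gbp2. Cxcl14 went the other way by a small amount, at 82.5 CPM with Gbp2 and 105 without (-0.35, -0.50 to -0.20).

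Pooled levels of the class II genes, Cxcl9 and Cxcl10 were higher at each step in the number of Gbp2 UMIs. In cells with 0, 1, 2 to 4 and 5 to 67 Gbp2 UMIs, which numbered 2282, 299, 122 and 82, Cxcl9 was at 4.95, 12.7, 242 and 1284 CPM. Cxcl10 was at 23.7, 42.5, 199 and 1023 CPM. H2-Aa was at 5.09, 16.4, 63.1 and 159 CPM and Cd74 at 5.30, 9.70, 45.9 and 133 CPM, the cell with Ptprc left out. The intervals of the levels do not cover the spread between cells. Cxcl9 rested on 18, 8, 9 and 23 cells, or 0.789%, 2.68%, 7.38% and 28.0% of each set. Between 0 and 1 Gbp2 UMI, the shares of cells had overlapping intervals for Cxcl9, Cxcl10, Cd74 and H2-Aa. For H2-Ab1 and H2-Eb1 they were apart. Irf1, an interferon-induced transcription factor, was at 16.9, 21.4, 68.0 and 97.6 CPM. Cxcl14 had no such order, at 105, 82.3, 67.2 and 106 CPM. Dct, required in every cell by the rule, was at 8514, 7798, 6952 and 5538 CPM. By a log2 difference of 1 or more with an interval above 0, 7 of the 10 members were higher with Gbp2, the 7th being Ccl2 from 5 UMIs against 1, or 6 of the 8 with at least 10 thinned UMIs; of all 12866 genes, 1.55% were higher and 0.808% lower, and the median was -0.01.

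**Figure D3:**
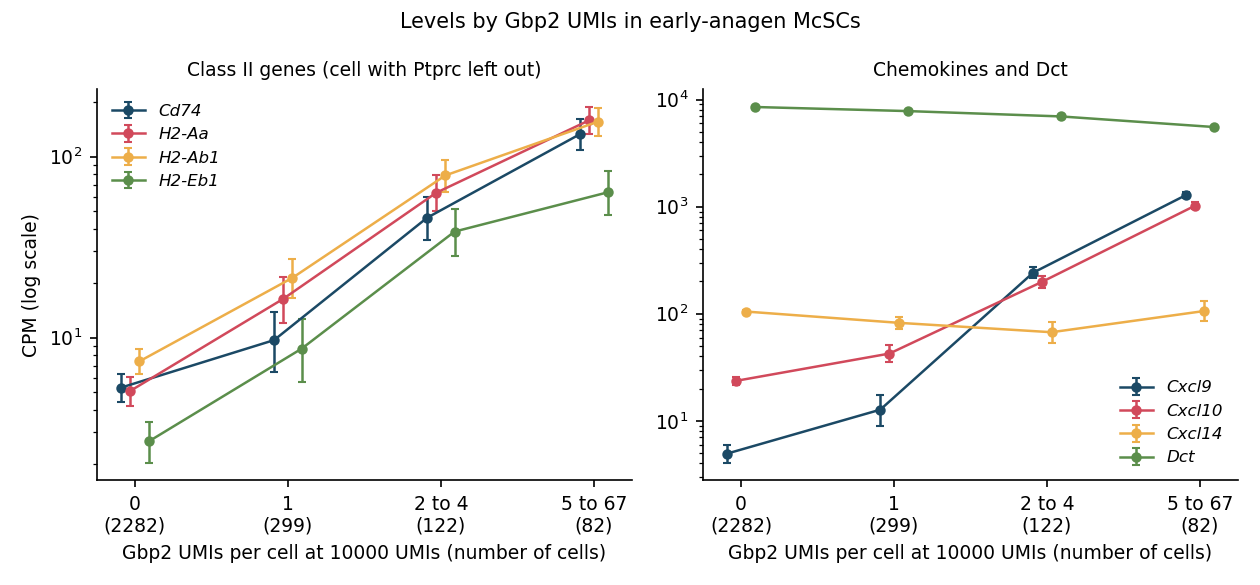
CPM on a log scale of the class II genes (left, the cell with Ptprc left out) and of 3 chemokines and Dct (right) by the Gbp2 UMIs of early-anagen McSCs thinned to 10000 UMIs each, with the number of cells under each bin and exact Poisson 95% intervals. Cxcl9 goes from 4.95 to 1284 CPM and H2-Aa from 5.09 to 159, while Cxcl14 stays between 67.2 and 106 and Dct is lowest in the last bin.

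The cells with most chemokine UMIs and those with most class II UMIs overlapped in part. Of the 42 cells with at least 5 Cxcl9 UMIs, 30 (71.4%) had at least 5 class II UMIs, which was 23.8% of the 126 cells with that many. Of the 145 cells with at least 5 Cxcl10 UMIs, 23 (15.9%) had at least 5 class II UMIs and 16 (11.0%) at least 5 Cxcl9 UMIs, the last being 38.1% of the Cxcl9 cells. No class II UMI at all was found in 8 of the 42 and in 95 of the 145. The cell with 761 Cxcl9 UMIs had 23 of Cxcl10, 29 of class II and 122 of Gbp2, and the cell with 310 Cxcl9 UMIs had 9 of Cxcl10 and 0 of class II. The cell with 366 Cxcl10 UMIs had 61 of Cxcl9 and 0 of class II. The cell with 144 class II UMIs had 6 of Cxcl9 and 0 of Cxcl10, and the cell with 124 had 191 and 170.

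**Figure D4:**
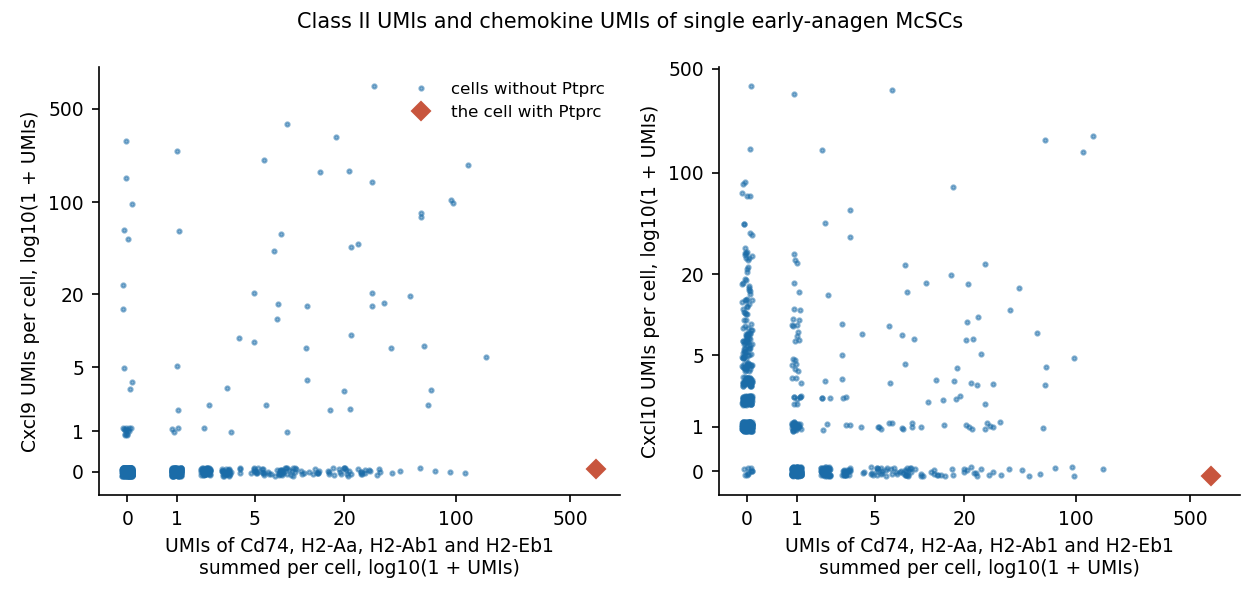
Each point is 1 of the 921 early-anagen McSCs with a UMI of a class II gene, Cxcl9 or Cxcl10, with the summed UMIs of Cd74, H2-Aa, H2-Ab1 and H2-Eb1 on the x axis and the UMIs of Cxcl9 (left) or Cxcl10 (right) on the y axis, all as log10(1 + UMIs) with small random shifts. The cell with Ptprc (diamond) has the most class II UMIs and 0 of both chemokines, and cells with over 100 UMIs of a chemokine lie between 0 and 124 class II UMIs.

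The genes whose levels followed a member over the 2785 thinned cells were named where the member was in at least 5% of cells, as correlations that share library and depth. H2-Aa went with H2-Ab1 (Pearson r = 0.76), H2-Eb1 (0.75) and Cd74 (0.71), at 0.75, 0.73 and 0.68 without the cell with Ptprc, and less closely with H2-Q7 (0.37) and H2-Q6 (0.37), class I genes that are near-identical copies whose reads may be split between them. H2-Ab1 went also with Psmb8 (0.39), an immunoproteasome subunit. The genes most like Cxcl10 were Ifi47 (0.39), Iigp1 (0.38), Gbp6 (0.36), Ifit1 (0.34) and Igtp (0.33), all interferon-induced. Those most like Cxcl14 were Trpm1 (0.30), Slc24a5 (0.29), Sparc (0.27), Mlana (0.25) and Ctsl (0.25), the first 2 and Mlana being pigment cell genes. These values are low for all but the class II genes, among 11439 genes compared.

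Oca2, a gene of pigment production that was not part of the rule, divided the members in the opposite sense. Of the thinned early-anagen cells 292 had an Oca2 UMI and 2493 did not. Cxcl14 was at 285 CPM with Oca2 and 79.3 without (log2 1.85, 1.73 to 1.96), and was found in 44.5% and 22.5% of cells. In cells with 0, 1, 2 to 4 and 5 to 11 Oca2 UMIs, which numbered 2493, 139, 118 and 35, it was at 79.3, 217, 295 and 520 CPM. The shares of these cells with Cxcl14 were 22.5%, 41.0%, 48.3% and 45.7%, the last 3 with overlapping intervals. Cxcl9 was at 4.45 CPM with Oca2 and 59.6 without (-3.74, -4.66 to -2.96), and Cxcl10 at 17.5 and 68.1 (-1.96). The shares of cells differed less, with Cxcl9 in 1.71% (0.558 to 3.95) with Oca2 and 2.13% (1.60 to 2.77) without, and Cxcl10 in 28 of 292 cells (6.47 to 13.6%) and 350 of 2493 (12.7 to 15.5%). The class II genes had 3 to 8 UMIs each in the cells with Oca2. With the cell with Ptprc left out, their log2 differences of levels were -3.61 for Cd74, -2.72 for H2-Ab1, -2.61 for H2-Aa and -2.41 for H2-Eb1. The shares of the same cells had overlapping intervals for Cd74, H2-Aa and H2-Eb1. Cd74 was in 1.03% of cells with Oca2 and 3.21% without, H2-Aa in 2.05% and 4.37%, and H2-Eb1 in 1.03% and 3.09%. For H2-Ab1, in 2.74% and 7.3%, the intervals were apart. The intervals of the levels do not cover the spread between cells. Over all 12866 genes, 2.14% were higher with Oca2 and 2.97% lower. The annotated interval of Oca2 overlaps that of Gm44506 on the other strand.

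No member was called 2-fold higher or lower in cells with transcripts of dividing cells. Mki67 and Top2a, 2 genes of dividing cells, were used to split the thinned cells into 993 with either and 1792 with neither. The log2 difference of levels was 0.02 for Cxcl10 (-0.12 to 0.16), although Cxcl10 had a UMI in 21.1% (18.6 to 23.8) of the cells with either and 9.38% (8.06 to 10.8) of those with neither. Cxcl12 was at 1.01 and 0.335 CPM from 10 and 6 UMIs (log2 1.59), with an interval of -0.01 to 3.33 that included 0. The difference was -0.22 for Cxcl14 and -0.35 for Cxcl9, and ran from -0.73 (Cd74) to -0.45 (H2-Ab1) for class II without the cell with Ptprc, with intervals below 0. With that cell it was 0.44 for Cd74 and 0.41 for H2-Eb1, so for these 2 the sign rested on 1 cell. Without that cell, the shares of cells with a UMI had overlapping intervals for class II, Cxcl9 and Cxcl14. Cd74 was in 3.43% of cells with either and 2.73% of those with neither, Cxcl9 in 2.52% and 1.84%, and Cxcl14 in 26.9% and 23.7%. H2-Aa was in 3.93% and 4.24%, H2-Ab1 in 6.35% and 7.09%, and H2-Eb1 in 2.52% and 3.07%. The intervals of the levels do not cover the spread between cells. Of all genes, 4.94% were higher by 2-fold or more and 2.06% lower. The cells with Mki67 or Top2a were deeper before thinning, with a median of 34875 UMIs against 21039.

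**Figure D5:**
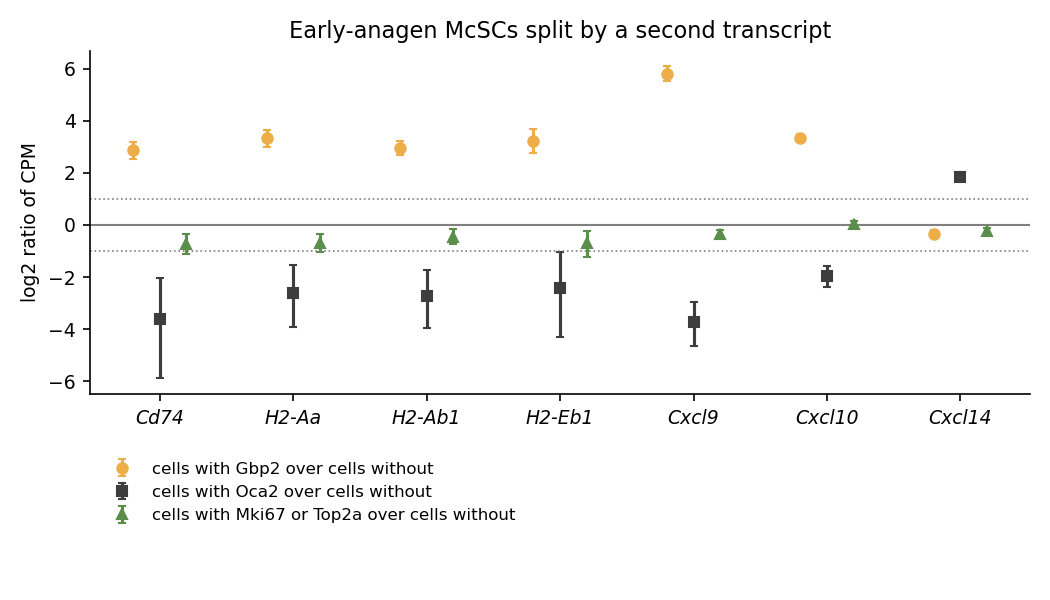
Log2 ratio of CPM, each early-anagen McSC thinned to 10000 UMIs and the cell with Ptprc left out, for cells with over cells without Gbp2 (circles), Oca2 (squares) and Mki67 or Top2a (triangles), with exact 95% intervals; dotted lines mark a 2-fold difference. Cd74, H2-Aa, H2-Ab1, H2-Eb1, Cxcl9 and Cxcl10 are higher with Gbp2 and lower with Oca2, Cxcl14 is higher with Oca2, and no gene drawn is called by Mki67 or Top2a. Cxcl12 is not drawn.

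Keratinocyte transcripts moved with Cxcl14 in the bulb. The 93 bulb cells with Cxcl14 held a mean of 17.6 UMIs of the 9 keratinocyte markers, against 0.568 in the 3641 without, and the median was 0 in both. The 24 bulb cells with 10 or more such UMIs, below the keratin limit of the rule all the same, had Cxcl14 at 218 CPM and held 18.9% of its UMIs, and the 2834 with none had it at 5.70 CPM and held 64.9%. In early anagen there was no such relation, with Cxcl14 at 96.6 CPM in the 1439 cells without a keratinocyte UMI and 34.5 CPM in the 28 with 10 or more. The part of keratinocyte RNA in the bulb value of Cxcl14 was not tested beyond these numbers.

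The share of cells with a UMI was also read in 80 early-anagen cells of the same limits with at least 20 UMIs of Krt10 and Krt14 and more of these than of Dct, which are keratinocytes by these 2 genes (median 34055 UMIs against 24528). At 10000 UMIs per cell, Cxcl14 was in 48.8% of them and 24.8% of the McSCs, Cxcl12 in 16.2% and 0.575%, and Ccl2 in 8.75% and 0.144%. Cxcl10 was in 13.75% of the keratinocytes (7.07 to 23.3%) and 13.57% of the McSCs (12.3 to 14.9%), so its share did not set the McSCs apart. Without thinning, at least 5 Cxcl10 UMIs were found in 10% of the keratinocytes and 5.21% of the McSCs. For class II the shares did not set the McSCs apart: Cd74 was in 6 of the 80 keratinocytes (2.80 to 15.6%) and 3.02% of McSCs, H2-Eb1 in 3.75% and 2.91%, H2-Aa in 2.50% and 4.17%, and H2-Ab1 in 2.50% and 6.86%, with overlapping intervals. As levels over all cells, Cd74 and H2-Eb1 in the 80 keratinocytes had intervals that overlapped those of the McSCs, and H2-Aa and H2-Ab1 were lower. A share of McSCs with a class II UMI, or a pooled level, is thus not read as expression here. The description rests on cells with several UMIs of several class II genes. Such cells were not confined to the McSCs. In 1 keratinocyte there were 29 UMIs of Cd74, 22 of H2-Ab1, 21 of H2-Eb1 and 17 of H2-Aa, with 0 of Ptprc and Gbp2. Without thinning, at least 5 UMIs of Cd74 were found in 2.50% of the 80 and 1.62% of McSCs, and of H2-Ab1 in 1.25% and 2.62%. Cxcl9 was at most 1 UMI in any of the 80, and 0 of 80 had 5, while 42 McSCs did. Barcodes under 2000 UMIs in the early-anagen library, which may hold free RNA or damaged cells, had Cxcl14 at 102 CPM, Cxcl10 at 48.3, Cxcl9 at 38.9 and Cd74 at 26.3.

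Ccl2 and Cxcl12 were at or near the floor of detection in McSCs. Ccl2 had 10 UMIs in 4 early-anagen cells, the highest with 4, and 2 UMIs in 2 bulb cells. Cxcl12 had 44 UMIs in 38 early-anagen cells, none with more than 2. In the 80 keratinocytes, at greater depth, they had 33 and 45 UMIs, 10.6 and 14.5 CPM. Both values in McSCs, 0.132 and 0.581 CPM, were below these by more than their intervals.

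Partners of the class II genes were examined from lists set with earlier results of these data known. H2-DMa and H2-DMb1, the chains of the peptide exchanger H2-DM, were lower in the bulb (log2 -2.16 and -3.09, 326 against 54 and 162 against 14 UMIs) and higher with Gbp2 (1.45 and 1.81). Of the 6 accessory genes with at least 10 UMIs 3 were lower in the bulb and 1, Ctsl, a lysosomal protease, was higher (1.15), counts near the 37.1% and 14.3% of all genes. Of the 7 promoter factors, Rfx5 (-1.11) and Creb1 were lower in the bulb, and none differed with Gbp2, where their log2 values ran from -0.24 (Rfxap) to -0.02 (Creb1).

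Genes of the interferon-gamma response were lower in the bulb for 22 of 25 counted, against 37.1% of all genes. Their median was -2.27 over the 21 with a UMI in the bulb, and -3.13 over the 25 with the other 4 set at 3 counts. Psmb8 and Psmb9, subunits of the immunoproteasome, were at -6.60 and -5.03, and Iigp1, a GTPase of cell-autonomous defence, had 1996 UMIs in early anagen and 0 in the bulb. The receptor genes Ifngr1 (0.27) and Ifngr2 (0.58) were among those not lower, and Ifng itself had 0 UMIs in both libraries. With Gbp2, 17 of 24 were higher, against 1.55% of all genes, with a median of 1.94, Gbp2 left out. Gbp2, which made the split, is itself on this list, and the lists were set with earlier results of these data known. The counts in this paragraph are therefore descriptions and not tests. Cd274, the ligand of the checkpoint receptor PD-1, had 764 UMIs in early anagen and 15 in the bulb (-5.23) and was higher with Gbp2 (1.72). Of the 6 genes of costimulation and checkpoint tested, all 6 were lower in the bulb, against 37.1% of all genes, with Icosl at 104 and 0 UMIs.

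Other chemokines were few. Of 33, 14 had a UMI in early anagen and 12 in the bulb, and 9 had at least 10 UMIs, of which 5 were lower in the bulb and 1 higher, not far from the 37.1% and 14.3% of all genes. Ccl25 (653 and 873 UMIs) and Ccl27a (664 and 624) were found in both (log2 0.86 and 0.35), Cxcl1, a ligand of CXCR2, was lower in the bulb (390 and 18, log2 -4.00), and Ccl5, a T cell attractant, had 62 UMIs in 13 early-anagen cells and was higher with Gbp2 (6.23). Among the 23 receptor genes, Cxcr4, the receptor of CXCL12, had 222 UMIs in early anagen and 5 in the bulb, and Ackr3, which also binds CXCL12, 123 and 5. Cxcr3, the receptor of CXCL9 and CXCL10, had 15 and 105 UMIs, and Cxcr6 8 and 230, so these 2 were higher in the bulb (log2 3.25 and 5.28). Cxcr6 lies within Fyco1 on the other strand.

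The values on both sides of the limits that chose the cells are given once, as a description. The 247 early-anagen cells with 2 UMIs of Krt10 and Krt14, just inside, had Cd74 at 12.7 CPM, H2-Ab1 at 15.7, Cxcl9 at 148, Cxcl10 at 99.7 and Cxcl14 at 92.4. The 96 with 3, just outside, had 11.2, 18.7, 3.37, 131 and 99.3 CPM. For Cxcl9, 1 cell held 761 of the 1102 UMIs of the first set, and no cell of the second had over 3. The 89 cells just inside the depth limit, of up to 11000 UMIs, had H2-Ab1 at 10.7 and Cxcl14 at 77.8 CPM, and the 99 cells of 9000 to 10000 UMIs had 21.1 and 130 CPM, each class II value there resting on 1 to 7 cells.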

How the data were processed

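The genes and gene lists were chosen with earlier results of these data known. Per the labels and the study's methods, the authors made UMI counts per gene and cell barcode with Cell Ranger 6.0.1 on mm10 (GRCm38), and deposited 1 matrix of raw counts per library, cells of 4 mice together, with no cell filter beyond cell calling. The kept cells held 75718468 UMIs in early anagen and 55883067 in the bulb, which with 1 library per condition set the counting error but no replicate error. A telogen library was not analysed here.

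Counts were summed over the cells of each library and given as CPM with exact Poisson intervals, and ratios with exact conditional 95% intervals (Python 3.11.15, numpy 2.4.6, scipy 1.17.1, pandas 2.3.3). A gene was called for a difference of at least 1 on the log2 scale whose interval left out 0. Genes under 10 UMIs over the cells compared were left out of counts over all genes, whereas members were counted at any level. A level of 0 was set at 3 counts in the library. Cells were thinned at random, once with a fixed seed, to 5000 UMIs between libraries and 10000 within early anagen, and then split by whether the thinned cell held Gbp2, Oca2, Mki67 or Top2a, or Ptprc. The scripts were tested on simulated Poisson sums per gene with no spread between cells. That test therefore does not cover genes whose UMIs lie in few cells. Doublets were neither called nor removed, and leaving out the deepest 5% of cells was an alternative. The other alternatives were limits on cells, thinning, TMM factors (edgeR 4.0.16 on R 4.3.3, used for scaling only), a total without mitochondrial, ribosomal and pigmentation genes, and a mean of each cell's CPM. All 10 members were named. From each list came up to 5 genes with the most UMIs and up to 5 past 2-fold. Genes most like a member were the 5 with the highest Pearson correlation over thinned cells, for members in at least 5% of cells. Motifs were searched in the RefSeq windows, cut to the 250 bases before the start, on both strands. The values of 1 listed gene are not reported here.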

Additional observations from a re-analysis of the deposited data

Results flagged for a closer look

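The members also had UMIs in cells that passed the depth and mitochondrial limits but lay outside the Dct and keratin limits. In early anagen these were 679 cells, of which only the 80 keratinocytes and the 96 with 3 keratin UMIs were set beside the McSCs above. They held 913 UMIs of Cd74, 461 of H2-Ab1, 328 of H2-Aa, 319 of H2-Eb1 and 8 of Ciita. A single cell of 17748 UMIs had 812 of the Cd74 UMIs, 290 of H2-Ab1, 238 of H2-Eb1 and 231 of H2-Aa, with 3 of Ptprc, 185 of Cd207 and 0 of Dct, Krt10 and Krt14. Without it Cd74 was at 6.80 CPM, H2-Ab1 at 11.5, H2-Aa at 6.53 and H2-Eb1 at 5.45.

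The chemokines in the same 679 cells had 2124 UMIs of Cxcl14, 1095 of Cxcl10, 158 of Cxcl9, 80 of Ccl2 and 68 of Cxcl12. Cxcl9 had a UMI in 115 of them (16.9%), never more than 3 in a cell, at 10.6 CPM, whereas among the McSCs it had a UMI in 2.62% and up to 761 in a cell. In the bulb, 40 cells lay outside, and Cxcl14 had 75 UMIs in them. Why these values differ was not tested.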

How the results depend on the processing

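No paired analysis was possible because each condition had 1 library, and for the same reason no replicate could be left out. Over the alternatives, the members lower in the bulb numbered 8 to 10 and those higher 0. Those with over 50% of UMIs in the highest cells numbered 8 to 10, the 10 being reached only with 5% of cells in place of 1%. At 1% of cells, Cxcl14 stayed between 19.0% and 22.9%. Those higher with Gbp2 numbered 6 to 8, and those higher in the cell with Ptprc 4. No call changed sign. In the count lower in the bulb, the 8 came from thinning to 5000 UMIs. The 10 in that count came from dropping the keratin limit, keeping cells over 5000 UMIs in both libraries or taking the mean of each cell's CPM. Restricting the Gbp2 and Ptprc counts to members with at least 10 thinned UMIs (6 and 4) was chosen after seeing the data. Of the values of single members, 13 moved beyond their interval or changed call in the bulb contrast and 115 did not, and in the Gbp2 split 31 did and 73 did not. In the latter, Cd74 ran from 1.01 to 3.07, H2-Aa from 1.82 to 3.63, Cxcl9 from 4.93 to 6.82, Cxcl10 from 2.65 to 4.36 and Cxcl14 from -0.39 to 0.01 on the log2 scale. Alternatives that changed the set of cells also changed the random draw of the thinning, so for them the setting and the draw cannot be told apart. The Ptprc split gave no value with at least 2 Ptprc UMIs or with no Krt10 or Krt14 UMI, since the thinned cell then did not count as holding Ptprc. TMM factors moved the median of all genes from -0.43 to -0.12. Depth limits Ciita and Ccl2 most, with 13 and 10 UMIs in early anagen.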
